A study of Mus musculus with 14 samples.

Results

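DNA methylation in mammals is written and erased by a small set of enzymes, and 8 of their genes were followed in differentiating mouse spermatogonia. They were chosen by name: the methyltransferase genes Dnmt1, Dnmt3a and Dnmt3b, the cofactor genes Dnmt3l and Uhrf1, and the dioxygenase genes Tet1, Tet2 and Tet3. All 8 were present in both count tables, among 24984 gene symbols in each. DNMT1, brought to hemimethylated DNA by UHRF1, copies the methylation pattern onto the new strand after replication. DNMT3A and DNMT3B add methylation where there was none, and DNMT3L, which has no catalytic activity of its own, stimulates them and is needed in prospermatogonia of the mouse. The TET proteins oxidise 5-methylcytosine, which leads to its removal.

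The cells were c-KIT-positive spermatogonia sorted from testes of C57BL/6J mice, differentiating germ cells past the stem cell stage. Their RNA was sequenced in bulk in 2 experiments that altered Cbx2, a subunit of the Polycomb complex PRC1. In the deletion experiment, 2 deleted animals (Rosa26-CreERT2; Cbx2 Flox/Δ) had received 3 injections of 200 µL of tamoxifen at 20 mg/mL, and 2 controls (Rosa26-CreERT2; Cbx2 Flox/+) were mock-injected with corn oil. Both groups carry the recombinase, which the Rosa26 locus drives in most cell types, and at least 1 floxed allele, and genotype and tamoxifen differ together between them. In the 23KRA experiment, 5 animals homozygous for Cbx2 23KRA, in which lysines and arginines of the CaPS domain are changed to alanine, were set against 5 Cbx2 +/+ animals, all without treatment. Libraries of the deletion experiment were made with an mRNA kit and those of the 23KRA experiment with a total RNA kit, per the protocols, so each comparison stays within its own experiment. The molecule label reads polyA RNA for both experiments, which conflicts with a total RNA kit. No age of the animals was stated. Each library was treated as coming from 1 animal, as the animal counts in the protocol allow.

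The deletion libraries held 28169990 to 31166500 counts and the 23KRA libraries 14562564 to 19814511. Levels are given as CPM, a gene's share of the counts after TMM scaling of the library sizes. The marker of the sort, Kit, was at 203 to 271 CPM in the deletion and 232 to 303 CPM in the 23KRA libraries, and Stra8, a gene of differentiating spermatogonia, at 507 to 596 and 541 to 819 CPM. Cbx2 itself was still at 78.5 and 86.5 CPM in deleted animals against 93.9 and 97.7 CPM in controls, a difference that did not pass the test (log2 fold change -0.21, SE 0.12). The 23KRA groups had 73.0 ± 12.6 (wild type) and 64.1 ± 17.4 CPM (homozygous) of Cbx2 (SD, n = 5). Counts over the whole gene do not measure how much of the floxed interval was lost. Of 8 spermatid markers the summed level was 2729 to 3151 CPM in deleted animals and 3166 to 3462 CPM in controls. The summed level of 6 Leydig cell markers was 12.6 to 14.1 CPM in deleted animals and 17.6 to 22.2 CPM in controls. Only 1 of the 6, Cyp17a1, was called lower, at a mean of 1.66 CPM in deleted animals against 6.07 CPM in controls. Another 1 of the 6, Lhcgr, went the other way, at 0.979 against 0.345 CPM, and did not pass. Lists of 8 genes each were higher without overlap in deleted animals for meiotic prophase, at 3626 to 3952 against 3437 to 3578 CPM, and for differentiating spermatogonia, at 1589 to 1607 against 1574 CPM in both controls. In 23KRA all 4 of these lists overlapped between the groups, at 248 to 1141 CPM in homozygotes and 299.7 to 1129 CPM in wild type for spermatid markers. The summed lists for undifferentiated spermatogonia, Sertoli, myoid, macrophage and leukocyte, and endothelial cells overlapped between the groups in both experiments. With 2 libraries a group in the deletion, 33.1% of all single genes tested were free of overlap. The part of any of these markers in the levels below was not tested.

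Start regions are printed for the most abundant pair, Dnmt1 and Uhrf1, and for Dnmt3l, whose level was low, to show how CpG content differs between windows, since CpG is the site that DNMT1 methylates. Each window runs from 250 bases before to 50 bases after an annotated start, in RefSeq on GRCm38.p6, and capitals mark CpG dinucleotides. Where a gene has several annotated starts, the window with the most CpGs is shown. The Dnmt1 window is chr9:20952574-20952873 on the minus strand, the Uhrf1 window chr17:56304063-56304362 on the plus strand and the Dnmt3l window chr10:78042037-78042336 on the plus strand.
Dnmt1: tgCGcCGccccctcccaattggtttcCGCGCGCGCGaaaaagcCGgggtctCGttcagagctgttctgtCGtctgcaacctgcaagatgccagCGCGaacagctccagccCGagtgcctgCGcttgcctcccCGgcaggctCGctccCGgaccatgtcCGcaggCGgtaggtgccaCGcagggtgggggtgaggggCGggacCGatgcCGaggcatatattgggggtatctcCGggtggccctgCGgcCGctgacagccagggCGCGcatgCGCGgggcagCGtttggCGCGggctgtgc
Uhrf1: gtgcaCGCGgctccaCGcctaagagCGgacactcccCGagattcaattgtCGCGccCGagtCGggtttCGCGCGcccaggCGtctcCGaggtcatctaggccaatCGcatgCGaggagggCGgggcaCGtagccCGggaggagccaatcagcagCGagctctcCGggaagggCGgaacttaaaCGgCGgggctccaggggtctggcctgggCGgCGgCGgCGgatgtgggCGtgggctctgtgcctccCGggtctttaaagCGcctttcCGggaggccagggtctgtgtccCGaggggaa
Dnmt3l: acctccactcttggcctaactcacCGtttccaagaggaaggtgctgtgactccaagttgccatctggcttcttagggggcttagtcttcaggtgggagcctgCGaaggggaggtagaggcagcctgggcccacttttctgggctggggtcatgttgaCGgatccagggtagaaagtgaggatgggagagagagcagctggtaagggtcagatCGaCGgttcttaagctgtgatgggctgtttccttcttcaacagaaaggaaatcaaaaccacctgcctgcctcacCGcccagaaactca

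The Dnmt1 and Uhrf1 windows held 33 CpGs each and the Dnmt3l window 6, against a median of 7 over 32851 windows of the same length. The other starts held 2 and 12 for Dnmt1, 12 for Uhrf1, and 4 and 3 for Dnmt3l, so the contrast holds for the windows shown and not for every start. The single annotated start of Tet2, another gene of low level, held 57, more than in 99.8% of all windows. The E2F motifs TTTCGCGC and TTTGGCGC, searched on both strands, were found in the Dnmt1 window shown at positions 32 and 284 and in the Uhrf1 window shown at position 66, with no overlap between matches. The other starts of both genes held neither motif. Of all windows, 0.813% held either motif, and none of the windows of the other 6 genes did. Counts per gene do not show which start was used, so these matches are a description of the sequence alone.

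Per length, the genes that keep methylation up were the most abundant in both experiments, with Dnmt3b next. Length here is the union of all annotated exons of a gene in GENCODE M21, from 2988 bases for Dnmt3l to 16870 for Tet2, and levels are CPM per kilobase. In the controls of the deletion experiment Uhrf1 stood at 53.4 ± 0.133, Dnmt1 at 43.3 ± 2.89, Dnmt3b at 23.2 ± 2.00, Dnmt3a at 6.82 ± 0.183, Tet3 at 2.87 ± 0.416, Dnmt3l at 0.887 ± 0.187, Tet2 at 0.152 ± 0.0164 and Tet1 at 0.0200 ± 0.0153 CPM per kilobase (SD, n = 2). No neighbours in that order overlapped between the control libraries, and the order was the same in deleted animals.

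In 23KRA wild type, Dnmt1 was at 100.5 ± 11.8, Uhrf1 at 50.7 ± 6.86, Dnmt3b at 28.1 ± 4.68, Tet3 at 12.4 ± 1.06 and Dnmt3a at 9.58 ± 1.01 CPM per kilobase (SD, n = 5), with no overlap between neighbours. Tet2 (0.514 ± 0.204), Dnmt3l (0.345 ± 0.451) and Tet1 (0.124 ± 0.0836 CPM per kilobase; SD, n = 5) followed, and here each overlapped its neighbour, so their order is not fixed. The homozygotes had the same order. With the longest transcript in place of the union of exons, the order of means did not change in any of the 4 groups. Dnmt3a was then at a mean of 16.5 and Tet3 at 19.0 CPM per kilobase in wild type. On that length their wild-type libraries overlapped: Dnmt3a was at 18.6 in replicate 5 and Tet3 at 17.2 CPM per kilobase in replicate 3. Among the TET genes, Tet3 held 91.8% to 96.8% of the summed level per length in wild type and 94.2% to 94.5% in the controls of the deletion experiment.

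**Figure D1:**
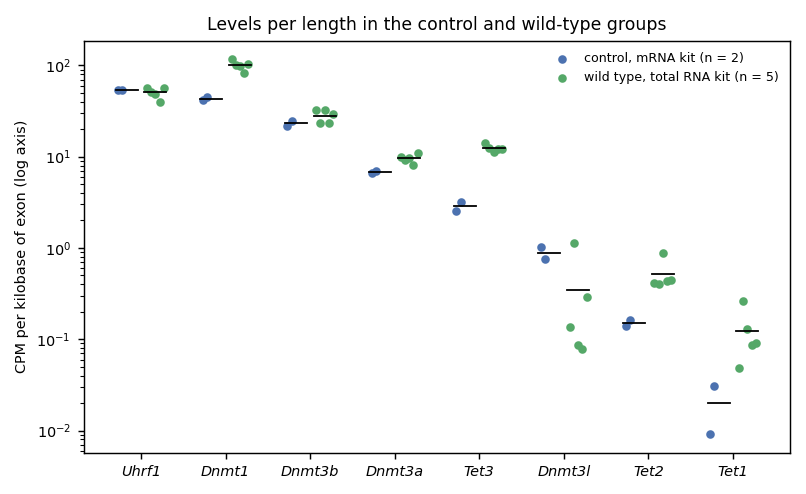
Level per length (CPM per kilobase of exon, log axis) of the 8 genes in the 2 control libraries of the deletion experiment (blue) and the 5 wild-type libraries of the 23KRA experiment (green). Points are libraries and black lines are means. Uhrf1, Dnmt1 and Dnmt3b lie at the top and Dnmt3l, Tet2 and Tet1 at the bottom in both groups.

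Set side by side, the experiments gave Uhrf1 at nearly the same level, 227 ± 0.565 CPM in controls (SD, n = 2) and 216 ± 29.2 CPM in wild type (SD, n = 5). Dnmt1 was at 319.6 and 741 CPM, and Tet3 at 47.8 and 207 CPM. Animals and, per the protocols, kits differ between the experiments, and so do marker levels. Summed spermatid markers were at 3166 to 3462 CPM in controls and 299.7 to 1129 CPM in wild type. Summed markers of differentiating spermatogonia were at 1574 CPM in controls and 1743 to 1921 CPM in wild type. The differences in Dnmt1 and Tet3 thus cannot be told apart from those of library preparation or of cell content, and they were not tested.

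None of the 8 genes passed the test in either comparison. In the deletion experiment 0 of 8 members passed an adjusted p of 0.05 in edgeR's quasi-likelihood test, and 2 of 16725 genes did (0.012%; 1 higher and 1 lower, 0.00598% each). None of the 8 had an unadjusted p under 0.05 by edgeR, DESeq2 or limma-voom, where 4.74% of all genes did by edgeR. In the 23KRA experiment 7 members had enough counts to test and 0 passed, as did 0 of 14208 genes (0%). Again none of the 7 had an unadjusted p under 0.05 by any of these 3 tools, where 3.04% of all genes did by edgeR. The median log2 fold change was -0.041 over 8 members in the deletion and -0.10 over 7 members in 23KRA, beside -0.0044 and 0.0034 over all genes tested. The log2 fold change was below 0 for 5 of 8 members in the deletion and 5 of 7 in 23KRA, where 51% and 49.2% of all genes were. In bulk RNA, fewer cells of a type and less RNA per cell cannot be told apart.

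**Figure D2:**
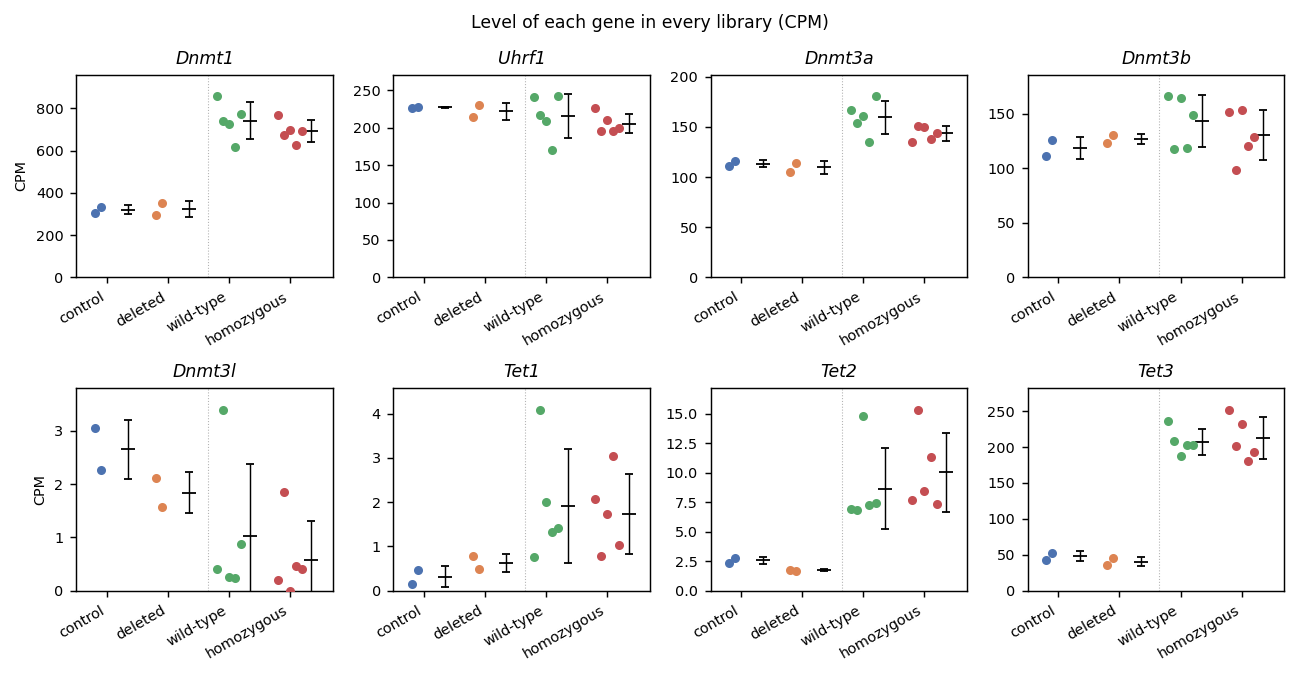
CPM of each gene in every library, on linear axes. Points are libraries, and black dashes with bars show the mean and SD of each group, cut off at 0 for Dnmt3l. The dotted line separates the deletion experiment (left) from the 23KRA experiment (right). In the 23KRA experiment all 8 genes overlap between the groups.

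For the maintenance genes, the intervals of the fold change spanned 1 in both experiments. Dnmt1 (chromosome 9, 20907209 to 20959888 on the minus strand of GRCm38) had 304 and 335 CPM in control replicates 1 and 2, and deleted replicates 1 and 2 had 297 and 350.5 CPM. The deleted libraries lay on either side of the controls. The fold change was 1.01 with a 95% interval of 0.866 to 1.19 (log2 0.019, SE 0.11). In 23KRA, wild-type replicates 1 to 5 had 856, 738, 724, 615 and 773 CPM of Dnmt1. Homozygous replicates 1 to 5 had 768, 672, 697, 627 and 693 CPM, all of them within the wild-type range. The fold change was 0.933 (95% interval 0.831 to 1.05; log2 -0.10, SE 0.080), and the exact two-sided permutation test gave p = 0.325, where 0.00794 is the smallest possible.

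Uhrf1 (chromosome 17, 56303321 to 56323486, plus strand) encodes the RING finger protein that reads hemimethylated CpG and recruits DNMT1. Control libraries had 227 and 228 CPM, and deleted libraries had 214 and 230.2 CPM. The fold change was 0.977 (95% interval 0.840 to 1.14). The wild-type values, from replicate 1 to 5, were 241, 217, 209, 171 and 242 CPM, and the homozygous ones 226, 196, 211, 196 and 199.8 CPM. The homozygous libraries all lay inside the wild-type range, with a fold change of 0.951 (95% interval 0.833 to 1.09; exact two-sided permutation p = 0.540).

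The ratio of Dnmt1 to Uhrf1 varied little between libraries of the 23KRA experiment. The ratio of their CPM was 1.34 and 1.47 in control replicates and 1.39 and 1.52 in deleted replicates. It was 3.19 to 3.60 in wild-type and 3.21 to 3.47 in homozygous libraries. The spread of that ratio, 3.44 ± 0.159 in wild type (SD, n = 5), was narrower there than that of either gene, whose coefficients of variation there were 11.8% and 13.5%. Their profiles, as log2 CPM centred on each gene's mean, differed by a root mean square of 0.054 over the 10 libraries of the 23KRA experiment, the smallest difference among the 28 pairs of members. The libraries share their scaling factors, and no test was made of this.

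**Figure D3:**
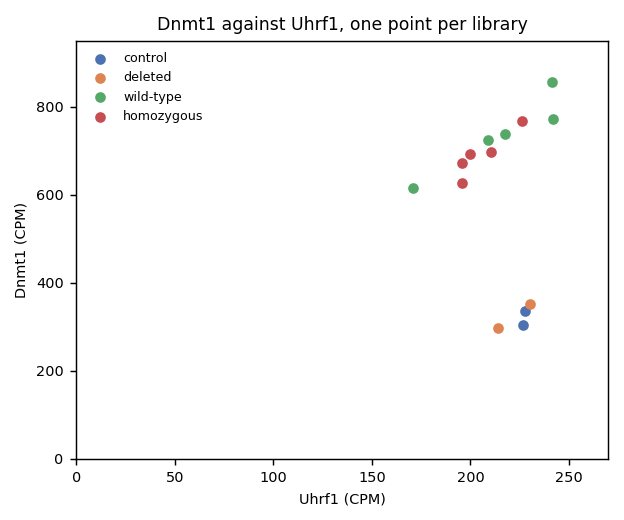
Dnmt1 CPM against Uhrf1 CPM, with 1 point for each of 14 libraries coloured by group and both axes starting at 0. The 4 libraries of the deletion experiment and the 10 of the 23KRA experiment lie apart, with Dnmt1 1.34 to 1.52 times Uhrf1 in the first and 3.19 to 3.60 times in the second.

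The de novo methyltransferase genes are known to rise as mouse spermatogonia become c-KIT-positive, and both were clearly expressed. Dnmt3a (chromosome 12, 3806007 to 3914443, plus strand) was at 111 and 116 CPM in the control libraries and at 105 and 114 CPM in the deleted ones, ranges that overlap. Its fold change was 0.967 (95% interval 0.825 to 1.13). The wild-type values, from replicate 1 to 5, were 167, 154, 161, 135 and 180.4 CPM, and the homozygous ones 134, 151, 150.0, 137 and 144 CPM. Apart from wild-type replicate 4, each wild-type library was above each homozygous library. The fold change was 0.900 (95% interval 0.791 to 1.02; log2 -0.15, SE 0.089), and the exact two-sided permutation test gave p = 0.0952, so the difference did not pass. It was the smallest permutation p among the 8 genes in 23KRA.

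Dnmt3b (chromosome 2, 153649450 to 153687730, plus strand) was at 111 and 126 CPM in the control libraries and at 124 and 131 CPM in the deleted ones, a fold change of 1.07 (95% interval 0.912 to 1.26). In wild-type replicates 1 to 5 it had 166, 118, 165, 119 and 149 CPM, and in homozygous replicates 152, 99.0, 154, 121 and 129 CPM. In both groups replicates 1 and 3 were the highest and replicate 2 the lowest. The fold change was 0.912 (95% interval 0.762 to 1.09; exact two-sided permutation p = 0.460). Per length, Dnmt3b stood above Dnmt3a in every library: the ratio was 2.93 ± 0.360 in wild type and 2.99 ± 0.582 in homozygotes (SD, n = 5), 3.26 and 3.55 in controls and 3.83 and 3.72 in deleted animals.

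Dnmt3l (chromosome 10, 78041947 to 78063622, plus strand) was at low levels throughout, with at most 86 counts in a library. It had 86 and 71 counts, or 3.05 and 2.26 CPM, in controls and 60 and 45 counts, or 2.11 and 1.57 CPM, in deleted animals. Both deleted libraries were below both controls, but the difference did not pass: the fold change was 0.696 (95% interval 0.456 to 1.06; log2 -0.52, SE 0.30; edgeR adjusted p = 0.971). In the 23KRA experiment it failed the count filter. Wild-type replicates 1 to 5 had 8, 49, 4, 4 and 13 counts (0.403, 3.40, 0.257, 0.231 and 0.871 CPM), and homozygous replicates 4, 28, 0, 7 and 7 counts (0.197, 1.85, 0, 0.463 and 0.401 CPM). Replicate 2 of each group stood above the rest, the exact two-sided permutation test gave p = 0.524, and the count of 0 in homozygous replicate 3 allows up to 0.207 CPM (3 counts, counting error only). Of the exon bases of Dnmt3l, 67 (2.24%) are shared with Aire on the other strand, and the strand setting of the counting was not stated.

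Tet3, the TET gene most expressed here, was lower in the mean in deleted animals without passing the test. Tet3 (chromosome 6, 83362373 to 83459084, minus strand) was at 42.9 and 52.8 CPM in the control libraries and at 35.7 and 45.3 CPM in the deleted ones. The groups overlapped, since deleted replicate 2 lay above control replicate 1. The fold change was 0.847 (95% interval 0.693 to 1.03; log2 -0.24, SE 0.14; edgeR adjusted p = 0.971). In wild-type replicates 1 to 5 Tet3 had 236, 208, 187, 202 and 204 CPM, and in homozygous replicates 252, 202, 232, 181 and 194 CPM. Here the homozygous libraries reached both above and below the wild-type range, with a fold change of 1.02 (95% interval 0.893 to 1.17; exact two-sided permutation p = 0.833).

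Tet2 (chromosome 3, 133463679 to 133545139, minus strand) was at 2.37 and 2.76 CPM in the control libraries and at 1.79 and 1.71 CPM in the deleted ones. Both deleted libraries were lower, at 51 and 49 counts against 67 and 87, and the fold change was 0.681 (95% interval 0.450 to 1.03; log2 -0.55, SE 0.29; edgeR adjusted p = 0.971). The wild-type values, from replicate 1 to 5, were 6.95, 6.86, 14.8, 7.28 and 7.44 CPM, and the homozygous ones 7.72, 15.4, 8.48, 11.3 and 7.34 CPM. A single wild-type library, replicate 3, stood at about the level of the highest homozygote, and the fold change was 1.16 (95% interval 0.739 to 1.81; exact two-sided permutation p = 0.437). Wild-type replicate 3 also had the highest summed level of 6 macrophage and leukocyte markers, 79.8 CPM against 1.68 to 17.6 CPM in the other wild-type libraries, while homozygous replicate 2, with 15.4 CPM of Tet2, had 9.30 CPM of these markers. None of the 6 was at 0 in the first of these libraries and 3 were in the second. Their part in the Tet2 level was not tested.

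Tet1 (chromosome 10, 62804570 to 62908996, minus strand) had the lowest mean level per length of the 8 in every group. In 23KRA that place is not fixed, since Dnmt3l was below Tet1 in 2 of 5 wild-type and 3 of 5 homozygous libraries. It had 4 and 15 counts, or 0.142 and 0.477 CPM, in controls and 22 and 14 counts, or 0.773 and 0.488 CPM, in deleted animals. Deleted replicate 2 and control replicate 2 differed by 1 count, and the fold change of 1.99 had a 95% interval of 0.839 to 4.71 (log2 0.99, SE 0.61). Leaving out 1 library leaves 1 sample in a group, so the values that follow say little of stability. The log2 value was 0.41 without control replicate 1 and 2.12 without control replicate 2. It was 0.63 without deleted replicate 1 and 1.28 without deleted replicate 2. Wild-type libraries ranged from 0.756 to 4.09 CPM with a median of 1.41, and homozygous libraries from 0.791 to 3.04 with a median of 1.72. The fold change in 23KRA was 0.906 with an interval of 0.312 to 2.63, the widest of the 7 genes tested there.

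**Figure D4:**
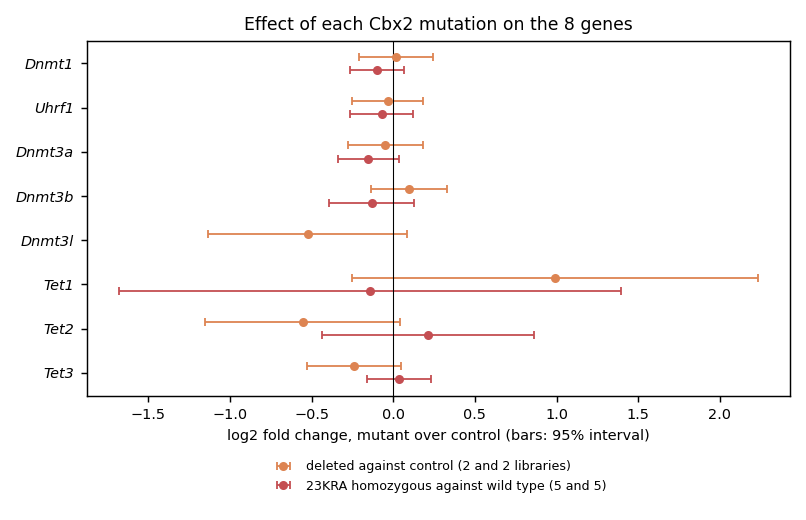
Log2 fold change of each gene in the deletion (orange, 2 and 2 libraries) and 23KRA (red, 5 and 5 libraries) comparisons, with bars for the 95% interval of edgeR's quasi-likelihood fit. All intervals include 0. They are narrow for Dnmt1, Uhrf1, Dnmt3a, Dnmt3b and Tet3 and wide for Dnmt3l, Tet1 and Tet2, and Dnmt3l was not tested in 23KRA.

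In the deletion, 3 of the 8 genes (37.5%) had groups that did not overlap in CPM: Dnmt3l and Tet2 lower and Tet1 higher, each with few counts. Of all genes tested, 33.1% did not overlap (15.6% higher and 17.5% lower in deleted animals), so this share is near the background, and with 2 libraries a group the smallest exact permutation p is 0.333. In 23KRA none of the 8 genes was free of overlap, where 0.711% of all genes tested were (0.436% higher and 0.274% lower in homozygotes). In wild type the coefficient of variation was 8.56% to 16.7% for Dnmt1, Uhrf1, Dnmt3a, Dnmt3b and Tet3, where counting error alone would give 0.905% to 2.05%. It was 130.5% for Dnmt3l, 67.5% for Tet1 and 39.6% for Tet2, where counting error would give 25.3%, 18.3% and 8.43%.

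The effect in the deletion minus the effect in 23KRA was tested in 1 fit of all 14 libraries, and 0 of 8 members passed in edgeR's quasi-likelihood test, as did 0 of 17227 genes (0%). None of the 8 had an unadjusted p under 0.05; other tools were not run on this contrast. The difference in log2 fold change was 0.10 for Dnmt1 (95% interval -0.22 to 0.43), -0.29 for Tet3 (-0.70 to 0.12) and -0.78 for Tet2 (-2.03 to 0.47).

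The partners of these genes did not pass either. Of 52 genes in 5 lists, 51 were in the tables and 49 were tested in each experiment, 0 passed in either direction by edgeR, and 1 in each (2.04%) had an unadjusted p under 0.05, beside 4.74% and 3.04% of all genes. The 7 maintenance partners include Hells, a chromatin remodeller needed for DNA methylation, at 1185 ± 150.1 CPM in the control and 1356 ± 142.7 CPM in the deleted group (SD, n = 2) and at 1881 ± 147 and 1811 ± 139.5 CPM in wild type and homozygotes (SD, n = 5). Usp7, a deubiquitinase that stabilises DNMT1 and UHRF1, was at 370 against 366 CPM in the deletion and 573 against 559 CPM in 23KRA. The median log2 fold change of this list was 0.15 in the deletion and -0.043 in 23KRA.

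Among de novo partners, 8 of the 9 listed genes were in the tables and tested. Tex15, which acts in methylation guided by piRNAs, was at 750.5 ± 114 against 801 ± 59.4 CPM in the deletion and 1386 ± 145.5 against 1522 ± 198 CPM in 23KRA. Trim28, a corepressor recruited by zinc finger proteins, was at 284 against 263 CPM in the deletion, and Nsd1, a histone H3 lysine 36 methyltransferase, at 831 against 870.5 CPM in 23KRA. The 9 methyl-CpG readers had medians of -0.084 and -0.058, with Mbd3 at 113 against 109 CPM and 92.7 against 85.8 CPM, Mbd2 at 58.2 against 60.0 CPM in the deletion and Mbd6 at 65.4 against 56.8 CPM in 23KRA.

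Of 18 demethylation and repair genes, 16 were tested (medians 0.026 and 0.055). Parp1, of single-strand break repair, was at 328 against 331 CPM and 399.5 against 375 CPM, the endonuclease gene Apex1 at 205 against 228 CPM in the deletion, and the DNA ligase gene Lig3 at 186 against 189 CPM in 23KRA. Tdg, the glycosylase gene that acts after TET oxidation, was at 0.105 to 0.425 CPM in the deletion libraries and 0 to 2.64 CPM in the 23KRA libraries, too low to test. The annotation holds a processed pseudogene of Tdg, and how reads matching both copies were handled was not stated, so this level is uncertain. Of the methyl donor cycle, 9 genes were tested (medians 0.11 and -0.037). Mat2a, which makes the methyl donor S-adenosylmethionine, was at 579 ± 45.2 against 624 ± 0.202 CPM in the deletion (SD, n = 2) and 224 ± 21.5 against 238 ± 9.33 CPM in 23KRA (SD, n = 5). Mat2b, its regulatory subunit, was at 184 against 205 CPM in the deletion, and methionine synthase, Mtr, at 162 against 145 CPM in 23KRA.

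**Figure D5:**
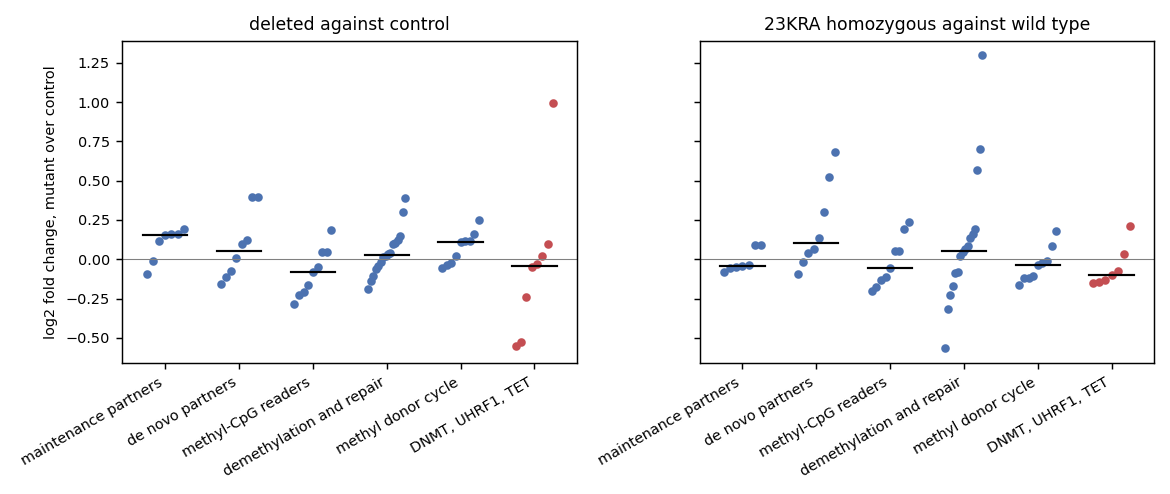
Log2 fold change of each tested gene of 5 partner lists (blue) and of the 8 genes themselves (red), in the deletion (left) and 23KRA (right) comparisons. Points are genes in order of their value and black lines are medians. Points of all lists lie on both sides of 0, and none passed the test.

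The genes closest in profile were named for each of the well-measured members, by the smallest root mean square difference of centred log2 CPM over the 10 libraries of the 23KRA experiment, among 10450 other genes of at least 5 CPM. They were Thop1 (0.051) and Snrnp200 (0.053) for Dnmt1, Nisch (0.048) and Sun1 (0.060) for Uhrf1, and Golga4 (0.071) and Kctd3 (0.073) for Dnmt3a. They were Pom121 (0.061) and Scrib (0.092) for Dnmt3b and Pou4f1 (0.048) and Cc2d1a (0.063) for Tet3. The median difference to all genes was 0.27 to 0.35 for these 5 members. For Tet2 the closest were Mrps21 (0.16) and Smpd2 (0.20), for Tet1 1700109H08Rik (0.31) and Rab3d (0.33), and for Dnmt3l Ryr2 (0.49) and Plp2 (0.49), where counts are few. Uhrf1 was about as close to Dnmt1 (0.054) as these genes were.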

How the data were processed

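The authors deposited 2 tables of raw read counts per gene symbol. Per the submitters' processing notes, mm10 was the build, and the tools were featureCounts (Subread 1.5.0 is listed too), STAR 2.5.3, Trim Galore 0.4.3 and SAMtools 1.4.1. Annotation, strand setting and treatment of multiply mapped reads were not stated. Deletion libraries used a SMART-Seq mRNA kit and 23KRA libraries a stranded total RNA kit with ribosomal cDNA depletion, per the labels' protocols.

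With R 4.3.3, edgeR 4.0.16, limma 3.58.1 and DESeq2 1.42.0, genes kept by filterByExpr were scaled by TMM and tested with edgeR's quasi-likelihood test, two-sided, with Benjamini-Hochberg adjustment over all genes tested. CPM uses these scaled library sizes. Exact permutation tests used log2(CPM + 0.5). Intervals are 95% from the fit's degrees of freedom. The fit was also run on simulated counts with known changes, drawn with the means and dispersions of these libraries. They held no effect shared by same-numbered libraries, so they cannot show how the test behaves with such effects. Positions and exon lengths are from GENCODE M21 (GRCm38), and start regions from RefSeq, where all 8 genes matched.

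Members and lists were chosen with earlier results of these data known. Named are the members, Cbx2, up to 4 genes past the threshold or else the 2 of highest mean CPM per partner list, and the 2 closest profiles per member. Tdg and Morc1 are named outside it, with their values known. Alternatives were other scalings and filters, DESeq2, limma-voom, a replicate block, leaving out libraries, another length and other pseudocounts. Replicates differed beyond counting noise (chi-square per degree of freedom 11.8 to 43.5), and p-values measure the spread between libraries, counting error included.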

Additional observations from a re-analysis of the deposited data

Results flagged for a closer look

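In the 23KRA experiment, 3 groups had a library far from the others, of 16 groups examined. The cut-off flags about 1 in 20 by chance only for normally distributed values, which low counts such as those of Dnmt3l need not be. Dnmt3l was at 3.40 CPM in wild-type replicate 2, against 0.231 to 0.871 CPM in the other wild-type libraries. It was at 1.85 CPM in homozygous replicate 2, against 0 to 0.463 CPM in the other homozygotes. Tet2 was at 14.8 CPM in wild-type replicate 3, against 6.86 to 7.44 CPM in the other wild-type libraries.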

How the results depend on the processing

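No member passed an adjusted p of 0.05 under any alternative run in either experiment, and none differed between experiments under the 4 alternatives run on that contrast (other scalings and filters). The smallest adjusted p of a member was 0.235, for Tet3 without deleted replicate 2 (edgeR). Fits with 1 sample in a group aside, 1 of 8 members in the deletion had an unadjusted p under 0.05 by edgeR with the replicate block. So did 1755 of 16725 genes tested there, and no member had one as reported. In 23KRA without wild-type replicate 4, 2 of 7 members had one, as did 725 of 14485 genes tested. The number of genes called in the deletion, 2 as reported, was 8 with no filter on low counts and 1 with a filter at 5 CPM, with DESeq2 or with limma-voom. It was 62 with the replicate block and 2 to 73 when 1 library was left out, 73 without deleted replicate 2 and 11 without control replicate 1. In 23KRA the replicate block gave 2 calls in place of 0, and leaving out any 1 library gave 0. Same-numbered libraries deviated together with correlations of 0.377 in the deletion, which has 2 pairs, and -0.0623 to 0.414 in 23KRA, where 4 of 5 wild-type libraries correlated best with their own number, and since replicate 3 did not correlate with its own number, the numbers were not taken as pairs. Leaving out a library in the deletion leaves 1 sample in a group, which is then assumed to vary like the other group, so these values say little of stability. Small log2 fold changes turned sign. Tet1 in 23KRA, at -0.14, became 0.015 with limma-voom and 0.57 without the 2 libraries in which the fewest genes were detected, and Tet3 in 23KRA, at 0.033, became -0.012 without them. When 1 library was left out in the deletion, Dnmt1 ranged from -0.11 to 0.14, Dnmt3a from -0.11 to 0.014 and Uhrf1 from -0.088 to 0.022. In 23KRA, Tet1 ranged from -0.44 to 0.34 and Tet3 from -0.046 to 0.086. Tet1 in the deletion, at 0.99, ranged from 0.41 to 2.12 and kept its sign. The cause was not tested. A filter at 5 CPM left 5 members to test in the deletion and 6 in 23KRA. Few counts limit Dnmt3l, Tet1 and Tet2.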

Other observations

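Morc1, which is needed for transposon silencing in the mouse male germline, was the listed partner with an unadjusted p under 0.05 in each experiment, and it was singled out after its values were seen. Control replicates 1 and 2 had 69.9 and 53.9 CPM and deleted replicates 84.7 and 78.2 CPM. Both deleted libraries were above both controls, as they were for 15.6% of all genes tested. The fold change of Morc1 was 1.32 (95% interval 1.10 to 1.58), but the edgeR adjusted p was 0.971. The wild-type values, from replicate 1 to 5, were 40.4, 55.6, 56.5, 56.6 and 39.9 CPM and the homozygous ones 55.3, 64.6, 68.5, 68.9 and 49.5 CPM. These groups overlapped, with a fold change of 1.23 (95% interval 1.00 to 1.51) and an edgeR adjusted p of 1.00.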
